A study of Mus musculus with 12 samples.

Results

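The albumin gene cluster of the mouse holds Gc, Alb, Afp and Afm on chromosome 5, and it is described here together with Esr1, the estrogen receptor alpha gene on chromosome 10. These 5 genes, the cluster as a whole and Esr1, were taken by symbol from a table of 22537 gene symbols. They were chosen because counts in this set, though not of every gene in it, differed between knockout and control livers in the same libraries. Their values in the knockout comparisons are therefore a description without a test. All 5 had rows in the table and passed the filter on low counts, among 13968 genes that passed. The samples were livers of 12 female C57BL/6 mice aged 6 months, all kept on a high-fat diet over 13 weeks, with 1 poly-A RNA library per mouse and 3 mice in each of 4 genotypes. AHR KO and ARNT KO were the knockout genotypes of the aryl hydrocarbon receptor and of its DNA-binding partner ARNT. AHR Flox and ARNT Flox were the matching control genotypes, whose names refer to recombination sites in the same gene. The sources used here name neither the recombinase line nor the deleted part of each gene, nor the cell type in which deletion took place.

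Albumin is the main plasma protein made by hepatocytes and carries fatty acids, hormones and drugs. Alpha-fetoprotein (Afp) takes its place in the fetal liver and is silenced around birth, afamin (Afm) binds vitamin E, and the Gc product is the vitamin D-binding protein. The cluster arose by gene duplication, and in adult liver its genes depend on hepatocyte transcription factors, among them HNF1 and C/EBP proteins. Estrogen receptor alpha is a hormone-activated transcription factor, and in female liver it takes part in lipid and glucose metabolism. AHR and ARNT bind together to DNA after AHR has met a ligand, and the hypoxia-inducible factors are further partners of ARNT.

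The promoters of the cluster genes are printed because neighbouring genes with a shared promoter motif differed in how their levels compared with the controls. Each line gives the 250 bases before the start site, 5′ to 3′ on the strand of the gene, from RefSeq on the GRCm38.p6 build. Capitals mark the HNF1 core motif GTTAAT in either orientation and the TATA box letters TATAAA. The regions are chr5:89457899-89458148 for Gc on the minus strand, chr5:90460620-90460869 for Alb, chr5:90490464-90490713 for Afp and chr5:90518699-90518948 for Afm, the last 3 on the plus strand.
Gc: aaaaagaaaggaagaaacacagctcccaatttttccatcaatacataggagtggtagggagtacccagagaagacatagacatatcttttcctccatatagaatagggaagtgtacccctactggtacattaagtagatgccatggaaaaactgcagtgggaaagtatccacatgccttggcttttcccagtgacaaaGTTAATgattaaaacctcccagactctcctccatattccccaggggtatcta
Alb: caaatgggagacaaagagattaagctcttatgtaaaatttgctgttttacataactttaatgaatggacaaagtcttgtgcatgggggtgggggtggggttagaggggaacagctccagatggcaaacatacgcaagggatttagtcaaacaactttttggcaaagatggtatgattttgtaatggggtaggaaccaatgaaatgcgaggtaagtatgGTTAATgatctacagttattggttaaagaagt
Afp: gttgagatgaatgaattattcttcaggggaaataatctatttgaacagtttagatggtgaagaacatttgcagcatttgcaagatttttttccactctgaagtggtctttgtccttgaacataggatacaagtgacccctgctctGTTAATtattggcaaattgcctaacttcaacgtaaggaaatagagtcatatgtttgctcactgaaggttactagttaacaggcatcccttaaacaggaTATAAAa
Afm: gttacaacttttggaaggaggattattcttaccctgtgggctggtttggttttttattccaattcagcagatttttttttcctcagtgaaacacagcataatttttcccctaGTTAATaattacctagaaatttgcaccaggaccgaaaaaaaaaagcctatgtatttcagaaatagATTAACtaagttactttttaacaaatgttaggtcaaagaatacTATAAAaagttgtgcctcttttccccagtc

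The GTTAAT motif was found in all 4 cluster promoters. It lay at −52 to −47 in Gc, −32 to −27 in Alb and −105 to −100 in Afp, counted back from the start site, and in Afm at −138 to −133 and, on the opposite strand, at −73 to −68. Of 32851 RefSeq promoters searched on both strands from 250 bases before to 50 bases after the start, 7.1% held these letters. The C/EBP letters TTNNGNAA were also in all 4 windows, with 4 matches in Alb, and in 40.7% of all promoters. In Gc the only match lay 30 to 37 bases after the start, outside the printed bases. A match in Afm likewise lay 28 to 35 bases after the start. TATAAA matched in Afp and Afm and in 13.6% of all promoters. In Afm, 2 of the 4 C/EBP matches overlapped each other on opposite strands. The AHR-ARNT core GCGTG was in none of the cluster windows and in 32.4% of all promoters. It matched once in 1 of the 2 Esr1 windows, 5 to 9 bases after the start, on the opposite strand. The hypoxia core ACGTG (19.6% of promoters), the FOXA letters TGTTTAC (3.65%), the HNF4 letters CAAAGTCCA (0.475%) and the palindromic estrogen response element (0.07%) matched in no window of the 5 genes. These matches describe letters in the windows and say nothing of binding.

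The genes lie close together except Gc. Alb spans 90460870 to 90476602 on chromosome 5, Afp 90490714 to 90508907 and Afm 90518949 to 90553544, all on the plus strand. The gap from Alb to Afp is 14.1 kb and that from Afp to Afm 10.04 kb. Gc spans 89417511 to 89457898 on the minus strand and ends 1003 kb before Alb. Esr1 spans 4611989 to 5005633 on chromosome 10, plus strand. Transcripts of Gc, Alb and Afp shared no 31-base stretch with transcripts of any other gene. Of such stretches, 2.67% in Afm were shared with Gm42109 and 0.68% in Esr1 with other genes, mostly Ppp2r5a, and none were shared among the 5 genes.

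Total counts ran from 23585909 to 33255004 per library. A count of 0 allows up to 3 counts, or 0.0862 to 0.126 CPM (counts per 1000000, with totals scaled by TMM), and this limit covers counting error only. On the first principal component, with 41.6% of the variance, ARNT KO replicate 3 scored 68.1 and the remaining libraries −33.0 to 32.5. Results that rest on that library are therefore also given without it. Arnt had 25.2, 23.9 and 18.95 CPM in ARNT KO against 47.8, 52.5 and 50.3 CPM in ARNT Flox, with no overlap. Ahr had 84.4, 94.8 and 80.3 CPM in AHR KO against 53.9, 78.8 and 72.4 CPM in AHR Flox and was not lower in any library labelled AHR KO. Counts over a whole gene do not show whether part of it was deleted, so they do not check that label. The 12 hepatocyte markers had counts in every library.

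Alb was the cluster gene furthest below its control level. It had 7089, 5491 and 6352 CPM in AHR KO against 78433, 89275 and 84389 CPM in AHR Flox. Every AHR KO library lay far below every AHR Flox library. The mean was 6311 ± 800 CPM in AHR KO and 84032 ± 5430 CPM in AHR Flox (SD, n = 3 each), 13.3-fold lower in AHR KO, with a log2 change of −3.74 ± 0.66 (SE from edgeR). Alb took 0.608 ± 0.0603% of all counts in AHR KO and 8.05 ± 0.375% in AHR Flox (SD, n = 3 each). Counts are per gene, so they do not show whether an inserted construct with Alb sequence, if a line held one, touches the Alb reads or the native gene. In bulk tissue, fewer cells that express a gene and less RNA per cell cannot be told apart. The summed level of the hepatocyte markers was 50458 to 62472 CPM in AHR KO and 42441 to 46100 CPM in AHR Flox, so it was not lower beside the low Alb. The cholangiocyte markers summed to 63.9 to 71.6 CPM in AHR KO and 74.1 to 84.9 CPM in AHR Flox, and those of macrophages to 584 to 702 CPM in AHR KO and 536 to 805 CPM in AHR Flox. All 10 stellate cell and fibroblast markers had a negative log2 change in AHR KO, with a median of −0.37, and their sums overlapped, at 271 to 390 CPM in AHR KO and 320 to 434 CPM in AHR Flox. The 13 lymphocyte markers summed to 29.2 to 32.6 CPM in AHR KO and 24.7 to 29.5 CPM in AHR Flox, and 6 of them had an edgeR unadjusted p under 0.05, as 11.9% of all genes did. Of the erythrocyte markers only 2 were tested, both with a negative log2 change in AHR KO, and the 5 in the table summed to 13.6 to 17.4 CPM in AHR KO and 18.97 to 29.2 CPM in AHR Flox, without overlap, with 2 or 3 of the 5 at 0 in each of these libraries. These sums were almost wholly Alas2, with 16.95, 13.4 and 14.6 CPM in AHR KO against 18.4, 19.3 and 27.8 CPM in AHR Flox. Sinusoidal endothelial markers overlapped, at 322 to 422 CPM in AHR KO and 362 to 414 CPM in AHR Flox. The part of these markers in the Alb level was not tested.

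In ARNT KO the 3 livers were unlike each other in Alb. They had 51926, 53685 and 5740 CPM, against 69704, 87894 and 70516 CPM in ARNT Flox. All 3 ARNT KO libraries were below the ARNT Flox libraries, replicates 1 and 2 by a modest amount and replicate 3 at the level of AHR KO. Alb made up 5.10% of counts in replicate 1 (95% exact Clopper-Pearson interval 5.09 to 5.10%), 5.39% in replicate 2 (5.38 to 5.40%) and 0.684% in replicate 3 (0.681 to 0.687%). The log2 change was −1.03 ± 0.60 with all libraries and −0.52 ± 0.19 without ARNT KO replicate 3, where the ratio of means was 0.695. The SE of the change in AHR KO was likewise 0.19 without that library, since the spread was estimated over all groups.

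Gc, which encodes the vitamin D-binding protein, stayed near its control level in both knockouts. It had 7994, 7519 and 7833 CPM in AHR KO against 6783, 6864 and 6981 CPM in AHR Flox, a log2 change of 0.18 ± 0.14. It had 7348, 7300 and 7091 CPM in ARNT KO against 6438, 7079 and 6746 CPM in ARNT Flox, a log2 change of 0.10 ± 0.14. The knockout libraries were all above their own controls in CPM, by 1.13-fold in the mean for AHR KO and 1.07-fold for ARNT KO. The margin in ARNT KO was narrow, at 7091 CPM in replicate 3 against 7079 CPM in ARNT Flox replicate 2. With Alb and Gc taken out of the total, Gc stood at 7656, 7804 and 8577 in ARNT KO. ARNT Flox then stood at 7459, 7792 and 7406, so these groups overlapped. Because Gc was this even, it gives a scale within each library. The ratio of Alb counts to Gc counts was 0.887, 0.730 and 0.811 in AHR KO against 11.6, 13.0 and 12.1 in AHR Flox. In ARNT KO it was 7.07, 7.35 and 0.810, against 10.8, 12.4 and 10.5 in ARNT Flox. The ratio in ARNT KO replicate 3 was thus inside the range of AHR KO.

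Afm, the vitamin E carrier downstream of Alb and Afp, was not low with them in AHR KO. It had 399.8, 379.9 and 383 CPM in AHR KO against 363, 376 and 369 CPM in AHR Flox, so the groups did not overlap although the log2 change was only 0.07 ± 0.21. Per 100 Gc counts there were 5.001, 5.052 and 4.891 Afm counts in AHR KO against 5.349, 5.476 and 5.279 in AHR Flox. On that scale AHR KO lay below, so the side of Afm depended on the scaling. In ARNT KO it had 379.5, 384 and 189 CPM against 295, 309 and 297 CPM in ARNT Flox. Replicates 1 and 2 of ARNT KO lay above all ARNT Flox libraries and replicate 3 below them. The log2 change was 0.08 ± 0.21 with all libraries and 0.35 ± 0.07 without ARNT KO replicate 3.

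Afp, the fetal albumin-like protein, was low everywhere and lowest in AHR KO. Its counts were 34, 34 and 30 reads in AHR KO against 147, 140 and 127 reads in AHR Flox, or 1.11, 1.10 and 0.941 CPM in AHR KO against 5.01, 4.79 and 5.26 CPM in AHR Flox. The groups were well apart, and AHR KO was 4.78-fold lower in the mean, a log2 change of −2.25 ± 0.29. In ARNT KO it had 4.66, 2.67 and 2.33 CPM against 4.64, 3.26 and 2.56 CPM in ARNT Flox. These groups overlapped almost wholly, with a log2 change of −0.12 ± 0.27, and the sign of that change turned to 0.06 ± 0.26 without ARNT KO replicate 3. Since Alb was lower by a larger factor than Afp in AHR KO, there were 156, 200.4 and 148 Afp counts per 1000000 Alb counts in AHR KO against 63.8, 53.6 and 62.3 in AHR Flox. The same ratio was 405 in ARNT KO replicate 3, against 89.7 and 49.7 in replicates 1 and 2 and 36.2 to 66.6 in ARNT Flox.

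Esr1, the receptor gene, was higher in both knockouts. It had 471, 473 and 468 CPM in AHR KO against 34.9, 37.0 and 30.9 CPM in AHR Flox. It had 216, 199 and 307 CPM in ARNT KO against 42.4, 36.0 and 38.6 CPM in ARNT Flox. No knockout library came near a control library, and the AHR KO libraries differed among themselves by a coefficient of variation of 0.522%. With 14486, 14622 and 14934 reads, counting error alone is of that order, so this value does not measure how alike the mice were. Esr1 averaged 471 ± 2.46 CPM in AHR KO and 34.3 ± 3.08 CPM in AHR Flox (SD, n = 3 each), 13.7-fold higher, with a log2 change of 3.78 ± 0.16. It averaged 241 ± 57.9 CPM in ARNT KO and 39.0 ± 3.23 CPM in ARNT Flox (SD, n = 3 each), 6.17-fold higher, with a log2 change of 2.63 ± 0.15, or 2.42 ± 0.09 without ARNT KO replicate 3. As for Alb, reads of the Esr1 locus and reads of a transgene that carries estrogen receptor sequence, if a line held one, cannot be told apart in counts per gene.

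**Figure D1:**
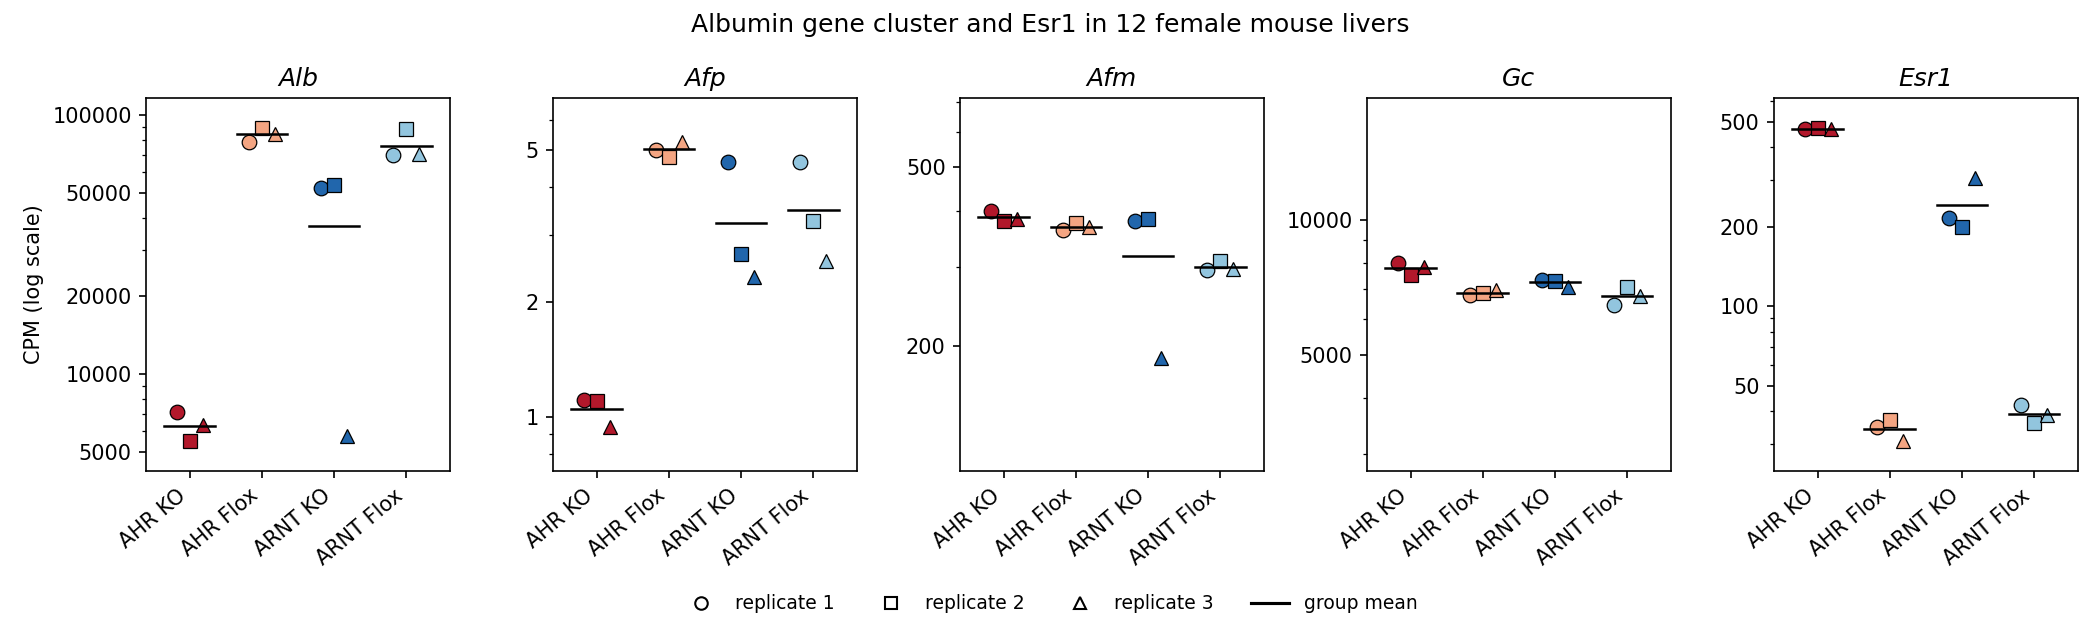
CPM of the 5 genes (log scale, own range per panel) in each library, by genotype; points are libraries, shapes are replicate numbers and bars are group means (n = 3). Alb and Afp are low and Esr1 is high in all AHR KO livers, Gc is even, and ARNT KO replicate 3 stands apart from its group in Alb, Afm and Esr1.

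Read as counts of genes, all 5 were without overlap in the AHR comparison, with Gc, Afm and Esr1 above and Alb and Afp below. Of all genes tested, 11.7% lay above and 9.46% below without overlap. In the ARNT comparison Gc and Esr1 lay above and Alb below, where 5.94% and 4.9% of genes did, while Afp and Afm overlapped. The pattern of both knockouts above their own controls held for Gc and Esr1 and for 0.687% of genes, and that of both below held for Alb and for 0.573% of genes. As the genes were chosen on these comparisons, nothing is read from these shares. The places hold for CPM, while on the other scales given above Afm lay below in AHR KO and Gc overlapped in ARNT KO.

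ARNT KO replicate 3 was unlike replicates 1 and 2 in Alb, Afm and Esr1. Relative to their mean, it had 9.20-fold less Alb, with ratios of 0.635 for Afp, 0.494 for Afm, 1.48 for Esr1 and 0.968 for Gc. Its Alb level was within the range of AHR KO, where Afm was 2.06 times as high and Esr1 1.53 times as high in the mean. Markers of several cell types moved in the same library. The 8 cholangiocyte markers, all above 0 in every library, summed to 337 CPM there, against 57.8 and 94.7 CPM in the other ARNT KO livers and 84.4 to 129 CPM in ARNT Flox. Spp1 alone made up 280.1 CPM of that sum. Hepatocyte markers summed to 30640 CPM in it, against 46112 and 46406 CPM in its group mates and 33988 to 41676 CPM in ARNT Flox. Macrophage markers summed to 1143 CPM, against 673 and 726 CPM in its group mates and 838 to 860.4 CPM in ARNT Flox. Stellate cell and fibroblast markers summed to 683 CPM, against 365 and 493 CPM in its group mates and 463 to 568 CPM in ARNT Flox, and lymphocyte markers to 51.7 CPM, against 31.6 and 36.4 CPM in its group mates and 36.2 to 44.6 CPM in ARNT Flox. Sinusoidal endothelial markers stayed within the range of ARNT Flox, at 453 CPM, against 409.5 and 448 CPM in its group mates and 419.8 to 487 CPM in ARNT Flox. Erythrocyte markers summed to 19.8 CPM, against 23.8 and 30.2 CPM in its group mates and 19.65 to 25.9 CPM in ARNT Flox. The part of these markers in the Alb, Afm and Esr1 values of that library was not tested.

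Set side by side, Alb and Esr1 took opposite places in the libraries. There were 15.04, 11.6 and 13.6 Alb counts per Esr1 count in AHR KO against 2249, 2412 and 2728 in AHR Flox. In ARNT KO the ratio was 240.4, 269 and 18.7, against 1644, 2444 and 1826 in ARNT Flox. The libraries fell into separate clusters, with the 6 Flox livers high in Alb and low in Esr1, so no correlation is given. ARNT KO replicates 1 and 2 combined high Esr1 with an Alb level 0.695 times that of ARNT Flox.

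**Figure D2:**
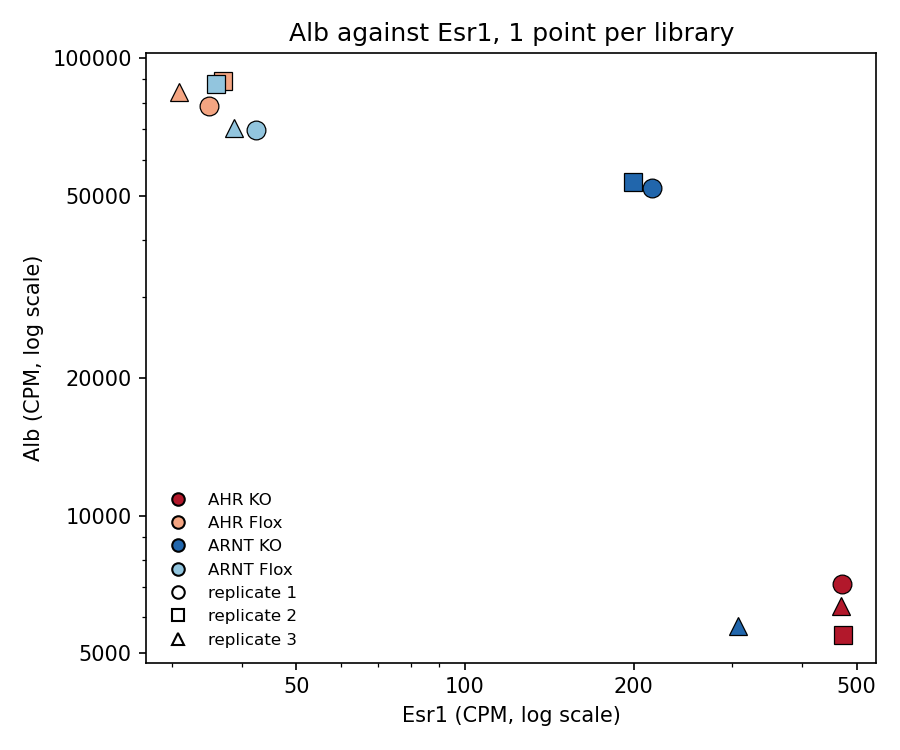
Alb against Esr1 in CPM (both axes log scale), 1 point per library, with colour for genotype and shape for replicate number. The 6 Flox livers are at the top left, ARNT KO replicates 1 and 2 are in between with 51926 and 53685 CPM of Alb, and ARNT KO replicate 3 is near the 3 AHR KO livers at the bottom right.

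Levels of different genes were compared per kilobase of exon. In all 6 Flox livers and in ARNT KO replicates 1 and 2 the order was Alb, Gc, Afm, Esr1 and Afp from high to low. In the 3 AHR KO livers and ARNT KO replicate 3, Gc was above Alb. In AHR KO, Gc stood at 4218 ± 131 CPM per kilobase and Alb at 2695 ± 341, in AHR Flox Gc at 3727 ± 53.9 and Alb at 35881 ± 2318 (SD, n = 3 each). Esr1 was at 34.5 ± 0.1798 CPM per kilobase in AHR KO, against 2.51 ± 0.226 in AHR Flox, and was still below Afm at 128 ± 3.51 in AHR KO. Afp, at 0.311 ± 0.0279 CPM per kilobase in AHR KO and 1.49 ± 0.0705 in AHR Flox, was the lowest in every library. Every gap between neighbours in these orders was larger than the spread within AHR KO and AHR Flox.

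The control lines offer a comparison that did not choose the genes. In ARNT Flox against AHR Flox, edgeR's quasi-likelihood test called 0 of the 5 genes at an adjusted p under 0.05, where it called 0.329% of all genes. None of the 5 had an unadjusted p under 0.05 either, as 19.9% of all genes did, and DESeq2 also called 0 of them, against 4.05% of all genes. The number of genes called over the whole table was 46, or 23 with the replicate number as a block, and it ran from 12 without ARNT Flox replicate 1 or 2 to 1532 without ARNT KO replicate 3. The log2 differences were −0.14 ± 0.59 for Alb (edgeR adjusted p = 0.910), −0.03 ± 0.14 for Gc (adjusted p = 0.933) and 0.19 ± 0.15 for Esr1 (adjusted p = 0.492). Afp and Afm lay below in all 3 ARNT Flox livers, as 17.7% of genes did, with differences of −0.52 ± 0.27 (adjusted p = 0.298) and −0.30 ± 0.21 (adjusted p = 0.432). Afm was called without ARNT KO replicate 3, at −0.30 ± 0.07 (edgeR adjusted p = 0.0171), where 10.9% of all genes were called, and with only the Flox groups in the fit (adjusted p = 0.0278), where 11.9% were.

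Genes around the cluster were tested next. Of 31 genes within 1 Mb of its ends, or inside it, 21 were tested. In AHR KO against AHR Flox, edgeR called 0 of them against 0.0788% of all genes. At an unadjusted p under 0.05 there were 8 of the 21, against 11.9% of all genes, and DESeq2 called 3, against 2.57% of all genes. In ARNT KO against ARNT Flox it called 0 against 0.0573% of all genes. Here 2 had an unadjusted p under 0.05, against 5.88% of all genes, and DESeq2 called 1, against 0.408%. The median log2 change of the neighbours was −0.09 in AHR KO and 0.03 in ARNT KO, against 0.01 in both for all genes. Without ARNT KO replicate 3, edgeR called 3 neighbours in AHR KO, against 0.966% of all genes, and 1 in ARNT KO, against 1.37%. Without ARNT KO replicate 1 it called 2 in AHR KO, against 0.127% of all genes.

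Cox18, which encodes a mitochondrial inner membrane insertase and ends 236 kb before Alb, had the smallest p among the neighbours in ARNT KO. It had 13.96, 12.8 and 13.4 CPM in AHR KO against 7.39, 8.48 and 7.91 CPM in AHR Flox, and 11.4, 9.25 and 14.2 CPM in ARNT KO against 7.56, 6.67 and 6.45 CPM in ARNT Flox. Both knockouts were above their controls in every library, the opposite side from Alb. The log2 change was 0.75 ± 0.14 in each, with edgeR adjusted p = 0.0783 in AHR KO and 0.228 in ARNT KO. Without ARNT KO replicate 3 it was called in both, at 0.75 in AHR KO (adjusted p = 0.0141) and 0.58 in ARNT KO (adjusted p = 0.0422). Ereg, the gene of the growth factor epiregulin 521 kb beyond Afm, lay below in both knockouts, at −2.57 ± 0.57 in AHR KO (adjusted p = 0.101, and 0.0446 and so called without ARNT KO replicate 3) and −1.32 ± 0.45 in ARNT KO (adjusted p = 0.680). Its level was at most 1.005 CPM in any library. Igj, the immunoglobulin joining chain gene at the far left, had the smallest p in AHR KO, at 1.75 ± 0.33 (edgeR adjusted p = 0.0769), and was called higher there without ARNT KO replicate 3 (adjusted p = 0.0391).

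The nearest tested genes on each side showed smaller differences. On the right, 5830473C10Rik, named Albfm1 in RefSeq and so an albumin family member, starts 7.08 kb beyond Afm. It had 36.5, 36.9 and 32.6 CPM in AHR KO against 50, 39.8 and 45.7 CPM in AHR Flox, without overlap, a log2 change of −0.35 ± 0.26 (edgeR adjusted p = 0.650). In ARNT KO it had 51.1, 39.9 and 19.1 CPM against 54.6, 54.8 and 43.9 CPM in ARNT Flox, with replicate 3 again lowest, as for Afm. Rassf6 had a log2 change of 0.01 in AHR KO, Slc4a4, a bicarbonate transporter gene, a value of 0.13, and Dck, deoxycytidine kinase, a value of −0.42, with adjusted p from 0.364 to 0.995. Ankrd17, 92.2 kb before Alb, had a log2 change of −0.23 ± 0.08 in AHR KO (adjusted p = 0.270).

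**Figure D3:**
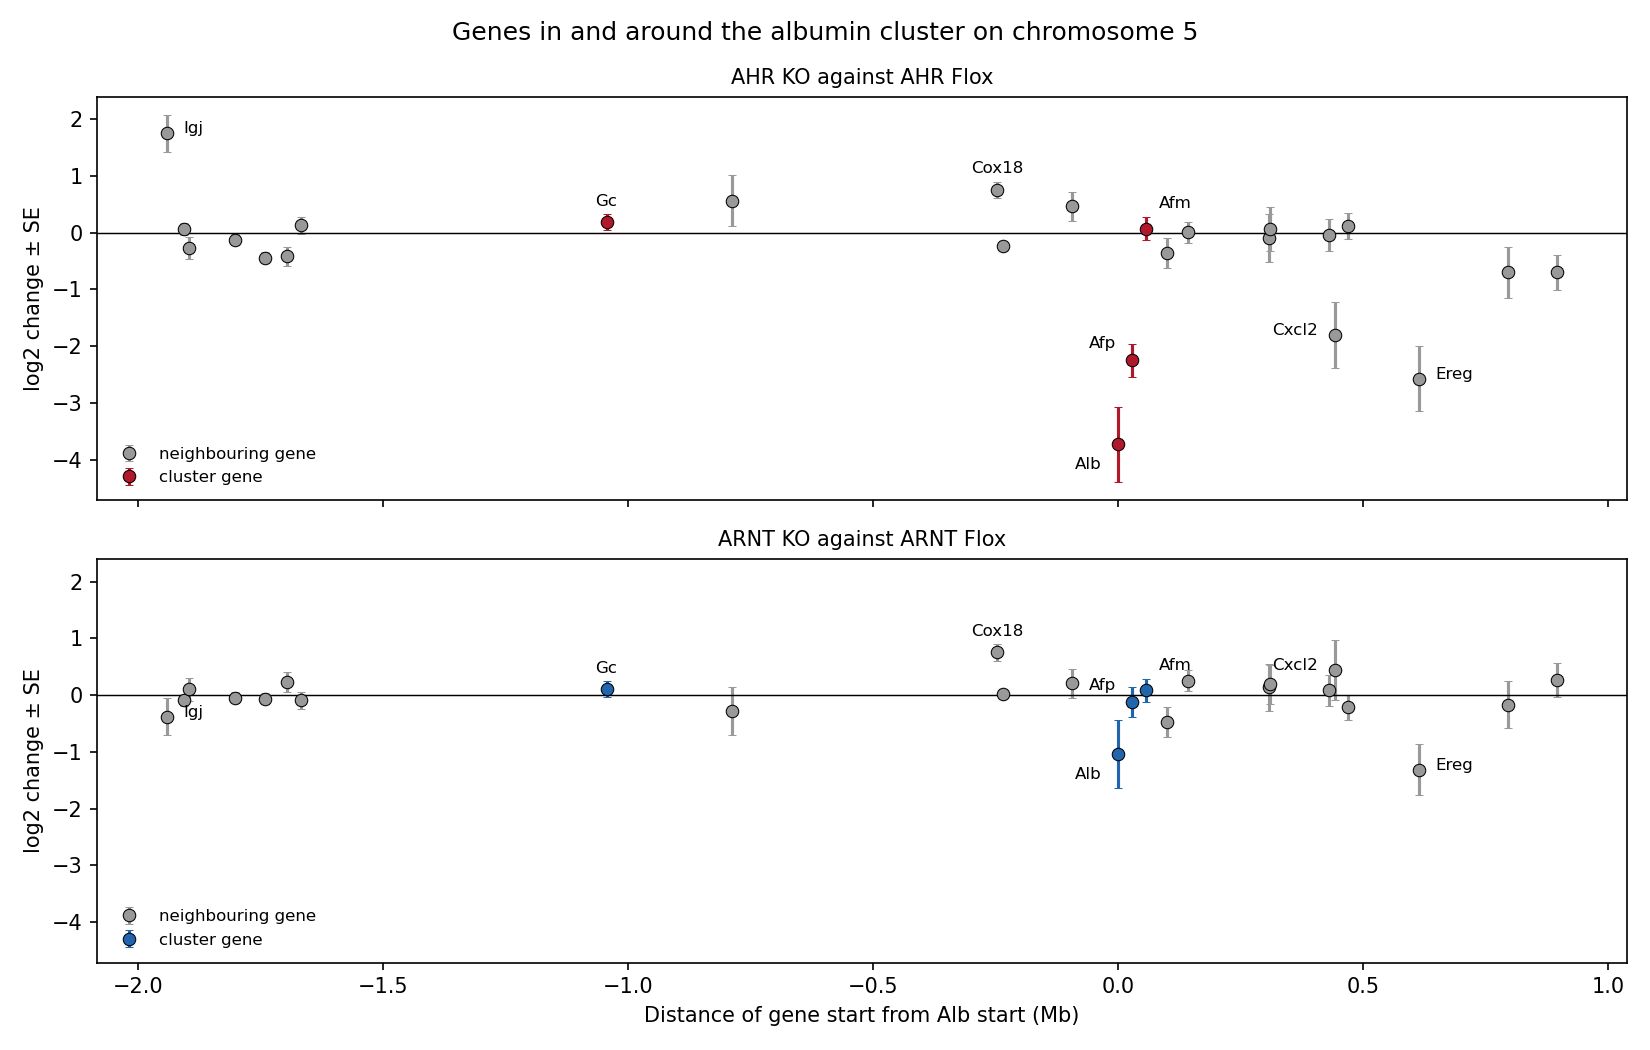
Log2 change (points, with SE bars from edgeR) of the cluster genes and their tested neighbours, by distance of the lower gene coordinate from that of Alb in Mb, for AHR KO (top) and ARNT KO (bottom) against their Flox controls. Alb at −3.74 and Afp at −2.25 in AHR KO lie between Cox18 at 0.75 and Afm at 0.07.

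Around Esr1, 9 of 13 genes within 1 Mb were tested. edgeR called 0 of them in AHR KO, against 0.0788% of all genes, and 0 in ARNT KO, against 0.0573%. At an unadjusted p under 0.05 there was 1 in AHR KO, against 11.9% of all genes, and 0 in ARNT KO, against 5.88%. DESeq2 called 1 in AHR KO, against 2.57% of all genes, and 0 in ARNT KO. The gene next to it, Syne1, which encodes a nuclear envelope protein and starts 14.6 kb beyond Esr1, lay on the other side of its control in AHR KO. It had 28.9, 30.9 and 23.3 CPM in AHR KO against 43.4, 34.7 and 37.5 CPM in AHR Flox, a log2 change of −0.48 ± 0.13 (edgeR adjusted p = 0.173). In ARNT KO its log2 change was −0.12 ± 0.13 (adjusted p = 0.995). On the left, 1700052N19Rik had a log2 change of −0.31 ± 0.14 in AHR KO (adjusted p = 0.424) and Zbtb2 a value of 0.17 ± 0.17 (adjusted p = 0.754), and Myct1 on the right a value of 0.10 ± 0.22 (adjusted p = 0.901).

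The known regulators of Alb and Afp transcription were next set against the cluster. All 26 were tested. edgeR called 0 in AHR KO, against 0.0788% of all genes, and 0 in ARNT KO, against 0.0573%, so 0 of 26 is near the level of all genes. DESeq2 called 0 in both, against 2.57% of all genes in AHR KO and 0.408% in ARNT KO. At an unadjusted p under 0.05 there were 4 in AHR KO and 1 in ARNT KO. At that unadjusted p were 11.9% of all genes in AHR KO and 5.88% in ARNT KO, so 4 and 1 of 26 are near the level of all genes. Their median log2 change was −0.01 in AHR KO and 0.00 in ARNT KO. In ARNT KO replicate 3, where Alb was low, 19 of the 26 (73.1%) were below both of its group mates, as 41.5% of all genes were. There, 15 (57.7%) were below all ARNT Flox libraries, as 34.1% of all genes were. The median ratio of its level to the mean of its group mates was 0.795 over the regulators and 0.998 over all genes. The part of the regulators in its Alb level was not tested. In AHR KO the smallest p belonged to Nfil3, a bZIP repressor, at 0.69 ± 0.21 (edgeR adjusted p = 0.205), and to Zbtb20, a repressor of Afp in mouse liver after birth, at 0.29 ± 0.10 (adjusted p = 0.295). Zbtb20 had 23.2, 23.5 and 22.5 CPM in AHR KO against 17.3, 21.1 and 18.5 CPM in AHR Flox, without overlap. In ARNT KO they belonged to Onecut1, a hepatocyte transcription factor gene, at −0.92 ± 0.38 (adjusted p = 0.793), and Zfhx3 at 0.19 ± 0.12 (adjusted p = 0.913).

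Other plasma protein genes of hepatocytes were not low with Alb in AHR KO. Of 42 tested, 41 had a positive log2 change in AHR KO, with a median of 0.32, and 18 had one in ARNT KO, with a median of −0.03. Without ARNT KO replicate 3, 30 of the 42 had a positive change in ARNT KO, and the median was 0.14. In that library, where Alb was at the AHR KO level, 37 of the 42 were below both of its group mates, as 41.5% of all genes tested were, and 33 were below all ARNT Flox libraries, as 34.1% of all genes were. The median ratio of its level to the mean of its group mates was 0.728 over these genes and 0.998 over all genes. Serpina6, the corticosteroid-binding globulin gene, had 472 CPM in it, against 1086 and 1138 CPM in replicates 1 and 2 and 804 to 962 CPM in ARNT Flox. edgeR called 0 of the plasma protein genes in AHR KO, against 0.0788% of all genes, and 0 in ARNT KO, against 0.0573%. At an unadjusted p under 0.05 there were 10 in AHR KO, against 11.9% of all genes, and 1 in ARNT KO, against 5.88%. DESeq2 called 5 in AHR KO, against 2.57% of all genes, and 1 in ARNT KO, against 0.408%. Fetub, the gene of fetuin-B, had 612, 649.6 and 679 CPM in AHR KO against 432, 479 and 353 CPM in AHR Flox, a log2 change of 0.62 ± 0.13 (edgeR adjusted p = 0.0994). Serpina7, the thyroxine-binding globulin gene, had a log2 change of 0.63 ± 0.17 in AHR KO (adjusted p = 0.167) and of −0.93 ± 0.17 in ARNT KO (adjusted p = 0.217). It had 103.6, 92.5 and 88.6 CPM in ARNT Flox against 42.5, 52.8 and 44.6 CPM in AHR Flox. ARNT KO was near AHR Flox, at 43.7, 48.0 and 57.35 CPM. Between the Flox groups Serpina7 was called, at 1.03 (edgeR adjusted p = 0.0403), where 0.329% of all genes were. That adjusted p rose to as much as 0.187 under the alternatives. Ttr, the transthyretin gene, had a log2 change of 0.37 ± 0.20 in ARNT KO (adjusted p = 0.868). Without ARNT KO replicate 3, edgeR called Fetub higher in AHR KO and Serpina7 lower in ARNT KO, where 0.966% and 1.37% of all genes were called, and 1 plasma protein gene was called in ARNT KO without AHR KO replicate 1, where 0.0918% of all genes were.

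Among fetal liver genes, many of them silenced after birth like Afp, 17 of 22 were tested. edgeR called 0 in AHR KO, against 0.0788% of all genes, and 0 in ARNT KO, against 0.0573%. At an unadjusted p under 0.05 there was 1 of 17 in each, where 11.9% of all genes were in AHR KO and 5.88% in ARNT KO. DESeq2 called 1 in AHR KO, against 2.57% of all genes, and 0 in ARNT KO. The median was 0.06 in AHR KO and 0.22 in ARNT KO, and without ARNT KO replicate 3 the median in ARNT KO was −0.50. H19, an imprinted fetal RNA, had 4.52, 9.42 and 7.49 CPM in AHR KO against 0.613, 0.513 and 0.704 CPM in AHR Flox, the opposite side from Afp, with a log2 change of 3.55 ± 1.22 (edgeR adjusted p = 0.268). In ARNT KO it had 5.71, 8.83 and 119.7 CPM against 90.1, 120.5 and 65.7 CPM in ARNT Flox. Replicates 1 and 2 of ARNT KO were low and replicate 3 was at the ARNT Flox level. Without ARNT KO replicate 3, edgeR called H19 higher in AHR KO at 3.55 (adjusted p = 0.00261), where 0.966% of all genes were called. In ARNT KO edgeR then called H19 lower at −3.66 (adjusted p = 0.000624) and Scd2 lower at −1.66 (adjusted p = 0.0241), where 1.37% of all genes were called. Scd2 had 7.635, 10.45 and 116.1 CPM in ARNT KO against 27.57, 38.69 and 19.69 CPM in ARNT Flox. Its level in replicate 3 was thus above all ARNT Flox libraries. In the fit without ARNT KO replicate 3, H19 and Scd2 were also called higher in ARNT Flox than in AHR Flox, where 10.9% of all genes were called. Those differences were 7.24 for H19 (adjusted p = 4.58e-06) and 1.94 for Scd2 (adjusted p = 0.00232). Igf2, the fetal growth factor gene next to H19, had a log2 change of 1.60 ± 0.85 in AHR KO (adjusted p = 0.495). Tff3 had a log2 change of 3.44 ± 1.32 (adjusted p = 0.740) and Epcam, also a cholangiocyte marker, a value of 1.01 ± 0.49 (adjusted p = 0.843) in ARNT KO, where replicate 3 alone was high with 46.7 and 12.2 CPM.

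The genes that work with the estrogen receptor were tested beside the higher Esr1. Of 30 partners and related receptors 27 were tested. edgeR called 0 in AHR KO, against 0.0788% of all genes, and 0 in ARNT KO, against 0.0573%, and DESeq2 called 0 in both. At an unadjusted p under 0.05 there were 4 in AHR KO, against 11.9% of all genes, and 0 in ARNT KO, against 5.88%. The median was −0.01 in AHR KO and 0.00 in ARNT KO. The coactivator gene Ncoa1 had a log2 change of −0.29 ± 0.08 (edgeR adjusted p = 0.189) and Fkbp5, a chaperone partner of steroid receptors, a value of 1.12 ± 0.37 (adjusted p = 0.247) in AHR KO. The chaperone genes Hsp90aa1 and Fkbp4 had a log2 change of 0.52 ± 0.24 (adjusted p = 0.833) and 0.29 ± 0.15 (adjusted p = 0.868) in ARNT KO.

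Estrogen-responsive genes also had no edgeR call in either knockout, with 26 of 28 tested. Of all genes, 0.0788% were called in AHR KO and 0.0573% in ARNT KO. At an unadjusted p under 0.05 there were 5 in AHR KO, against 11.9% of all genes, and 2 in ARNT KO, against 5.88%. DESeq2 called 2 in AHR KO, against 2.57% of all genes, and 1 in ARNT KO, against 0.408%. The median log2 change was 0.17 in AHR KO, with 21 of 26 positive, and −0.07 in ARNT KO, with 9 of 26 positive. Socs2, a feedback inhibitor gene of growth hormone signalling, had 94.5, 61.3 and 76.8 CPM in AHR KO against 34.1, 25.9 and 25.1 CPM in AHR Flox, all higher, a log2 change of 1.45 ± 0.26 (edgeR adjusted p = 0.0633). It had 25.5, 26.4 and 21.9 CPM in ARNT KO against 76.7, 37.1 and 41.4 CPM in ARNT Flox, all lower, a change of −1.07 ± 0.26 (adjusted p = 0.375), or −0.67 without ARNT Flox replicate 1, the highest ARNT Flox library. Socs2 thus lay above its own control in AHR KO and below its own control in ARNT KO. The controls differed as well, with Socs2 0.87 higher on the log2 scale in ARNT Flox than in AHR Flox (edgeR adjusted p = 0.140). Without ARNT KO replicate 3 that difference was called (adjusted p = 0.0491), where 10.9% of all genes were. The part of Esr1 and of the control lines in the Socs2 values was not tested. Cyp7b1, an oxysterol hydroxylase gene, had a log2 change of 0.47 ± 0.11 in AHR KO (adjusted p = 0.131), and Lifr, a cytokine receptor gene, a value of −0.49 ± 0.17 in ARNT KO (adjusted p = 0.687). In AHR KO, 1 gene of this list, Socs2, was called without ARNT KO replicate 3, where 0.966% of all genes were called. It was also called without ARNT Flox replicate 1, where 0.0709% of all genes were. In ARNT KO, Wisp2 was called lower without ARNT KO replicate 3, at −1.98 (edgeR adjusted p = 0.0219), where 1.37% of all genes were called. It had 0.155, 0.318 and 2.33 CPM in ARNT KO against 1.01, 0.970 and 0.838 CPM in ARNT Flox. With all libraries its change was 0.0004 ± 0.63. Without ARNT KO replicate 3, Wisp2 was also called higher in ARNT Flox than in AHR Flox, at 2.55 (edgeR adjusted p = 0.00186), where 10.9% of all genes were called.

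The last list held genes of the vitamin D and albumin carrier pathway, which handle the cargo of Gc and albumin. Of 14 genes 11 were tested. edgeR called 0 in AHR KO, against 0.0788% of all genes, and 0 in ARNT KO, against 0.0573%, and DESeq2 called 0 in both. At an unadjusted p under 0.05 there were 0 in AHR KO, against 11.9% of all genes, and 1 in ARNT KO, against 5.88%. The median was 0.05 in AHR KO and −0.01 in ARNT KO. Scarb1, a lipoprotein receptor gene, had a log2 change of 0.22 ± 0.12 (edgeR adjusted p = 0.490) and Cyp27a1, a sterol hydroxylase gene, a value of 0.21 ± 0.12 (adjusted p = 0.553) in AHR KO. Cyp4f14 had a log2 change of −0.66 ± 0.18 in ARNT KO (adjusted p = 0.557), where Cyp27a1 had a log2 change of −0.23 ± 0.12 (adjusted p = 0.868).

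**Figure D4:**
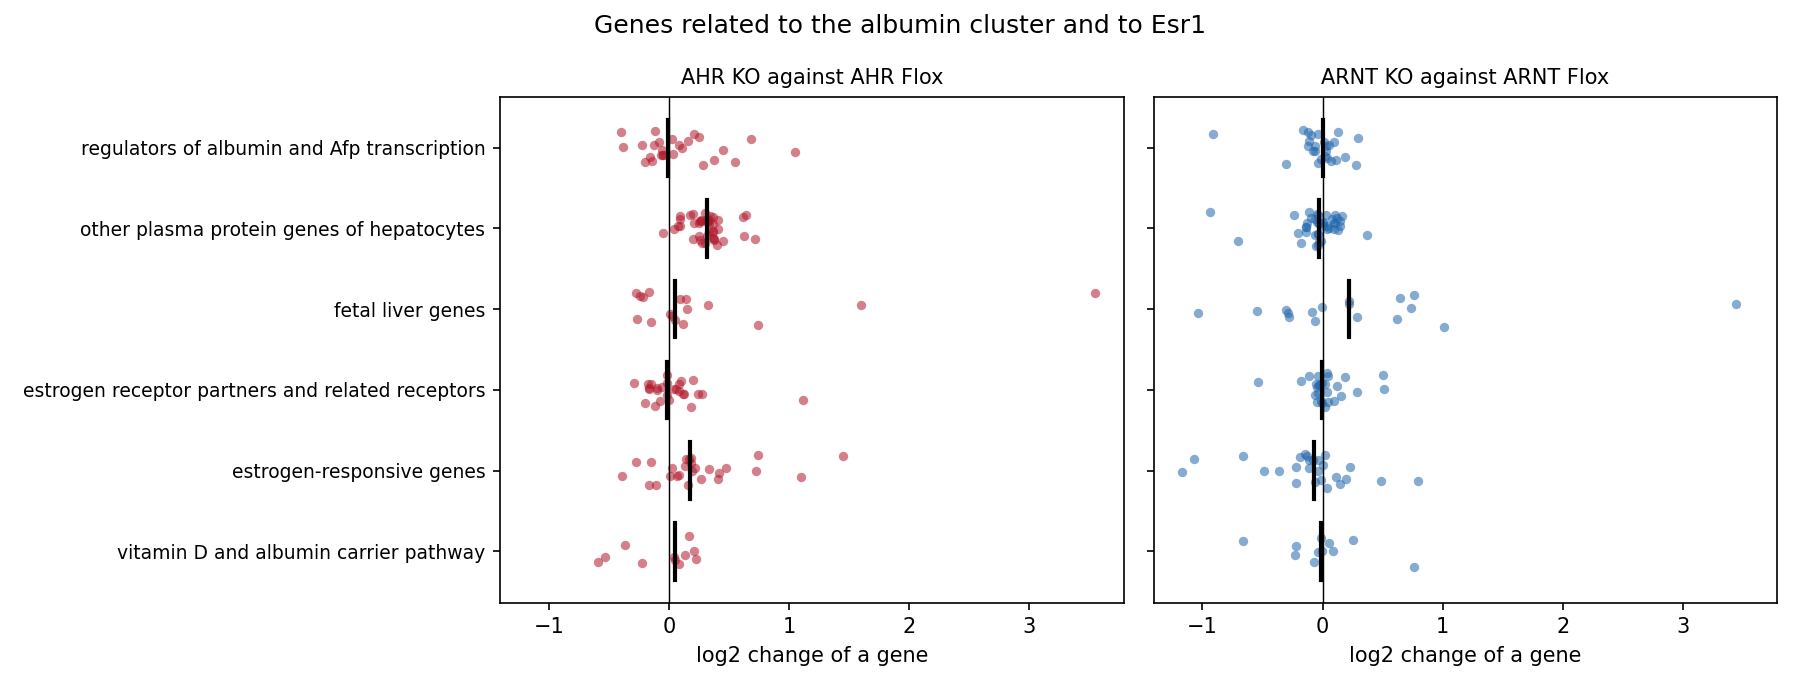
Log2 change of each tested gene (points) in 6 lists related to the cluster and Esr1, with the list median as a black bar, for AHR KO (left) and ARNT KO (right) against their Flox controls. Of the plasma protein genes, 41 of 42 sit right of 0 in AHR KO, with a median of 0.32, and the other medians lie between −0.07 and 0.22.

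Genes with the most similar profile were ranked by the mean absolute difference of z-scored log2 CPM over the 12 libraries, among 12258 genes with a mean of at least 1 CPM. This likeness ignores the size of a change and is a description. For Esr1 the closest were Pebp1 at 0.22, Cox18 at 0.274 and Pard3b at 0.284. Pebp1, which encodes a Raf kinase inhibitor protein, had 339, 239 and 300.1 CPM in AHR KO, 112, 116 and 127 CPM in AHR Flox, 208, 208 and 252 CPM in ARNT KO and 89.6, 93.8 and 95.8 CPM in ARNT Flox. It was high in the knockouts, as Esr1 was, over a narrower range. For Alb the closest were Qk at 0.293, Zbtb38 at 0.293 and Smarcc2 at 0.303, and Smarcc2 ran only from 105 to 140.3 CPM over all libraries. For Afp they were B230219D22Rik at 0.285, Sipa1l1 at 0.286 and Ston2 at 0.322. For Afm they were the acyl-CoA synthetase gene Acsl1 at 0.144, Abcc6 at 0.19 and Grid1 at 0.191, and for Gc they were Ambp at 0.275, Pebp1 at 0.296 and Tmbim4 at 0.297. Acsl1 had 467 CPM in ARNT KO replicate 3, against 1198 and 1161 CPM in replicates 1 and 2, so the likeness to Afm includes that library.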

How the data were processed

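Liver poly-A RNA was sequenced in 12 libraries. Per the labels' protocols, the NEBNext Ultra II kit was used on Trizol-extracted RNA. The table the authors deposited gives whole-number read counts for each gene, not normalized. The mm10 build, STAR 2.5.4b and 2.6.0c, DESeq2 1.20.0, R 3.5.1 and bcl2fastq 2.20 appear in the submitters' processing notes. How reads were counted, with which annotation and strand setting, is not given in the sources used here, so reads of a gene and of an antisense partner cannot be told apart.

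Counts were tested with edgeR 4.0.16 in R 4.3.3. One fit held all 12 libraries, a mean per group, TMM scaling and filterByExpr (minimum count 10, minimum total 15), which left 13968 genes with 99.98% of reads. The quasi-likelihood F test is two-sided, p was adjusted over all genes with the Benjamini-Hochberg method, and the threshold for a call was an adjusted p below 0.05. The fit was also run on simulated counts with changes planted only in AHR KO. These held no library set apart as ARNT KO replicate 3 is, so nothing is read from them here. Nothing in the labels says more of the replicates than 3 mice per genotype, and no pair of libraries of the same group was a duplicate (chi-square per degree of freedom 16.6 to 237).

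The members and lists were chosen with earlier results of these data known. The genes named are the 5 members, Ahr and Arnt, per list and knockout every called gene or else the pair with the smallest p, the pair of nearest tested neighbours on each side, and the 3 genes most like each member; Ereg in AHR KO, Ankrd17, Scd2, Wisp2 and Serpina6, and some genes in the contrast that did not name them, were added after their values were seen. Positions and promoters are from RefSeq GRCm38.p6, and exon lengths from GENCODE. Protein sequences were not analysed here.

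Alternatives were other scalings, filters, DESeq2 1.42.0, a block for the replicate number, a fit of only the groups compared, and every library left out in turn. Same-numbered residuals correlated at 0.314, 0.141 and 0.109 between the Flox groups, so the blocked count is given there. The pairing comes from the data and not from the labels.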

Additional observations from a re-analysis of the deposited data

Results flagged for a closer look

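Socs2 drew attention because the knockout effects themselves differed. The change in AHR KO exceeded that in ARNT KO by 2.52 ± 0.36 on the log2 scale (edgeR adjusted p = 0.0461), with all 3 AHR KO libraries higher and all 3 ARNT KO libraries lower than their own controls. That call was lost when any of 9 of the 12 libraries was left out, namely AHR KO replicates 1 to 3, AHR Flox replicates 1 to 3, ARNT KO replicates 1 and 2 and ARNT Flox replicate 3, and the adjusted p ranged from 4.78e-08 to 0.187 over all alternatives.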

How the results depend on the processing

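Alb, Esr1 and Gc kept the sign of their log2 change in both knockouts under all 20 alternatives, and so did Afp and Afm in AHR KO. In ARNT KO, Afp ranged from −0.49 to 0.14 and Afm from −0.08 to 0.35. Between the Flox groups, Gc was at 0.0043 in place of −0.03 with upper quartile scaling and ranged from −0.0677 to 0.0070 with 1 library left out, the cause was not tested, and Afm was called at −0.30 with only the Flox groups and ranged from −0.33 to −0.29. Genes called in AHR KO were 28 with no filter, 19 with the filter at 1 CPM in 3 libraries and 359 with DESeq2, and 5 to 136 leaving out 1 library. In ARNT KO they were 57 with DESeq2, 1 with only its own groups and 3 with the replicate block, and 1 to 193 leaving out 1 library. Between the Flox groups they were 566 with DESeq2, 1615 with only those groups and 23 with the replicate block, and 12 to 1532 leaving out 1 library. The block moved no call of a member. DESeq2 called 5 plasma protein genes in AHR KO and 1 in ARNT KO, 1 fetal liver gene in AHR KO, 2 estrogen-responsive genes in AHR KO and 1 in ARNT KO, 3 cluster neighbours in AHR KO and 1 in ARNT KO, and 1 Esr1 neighbour in AHR KO. In AHR KO, 1 estrogen-responsive gene was called with no filter, with only its own groups and with the replicate block, and 1 fetal liver gene with only its own groups. Leaving out 1 library gave 0 to 1 plasma protein genes in each knockout, 0 to 1 fetal liver genes in AHR KO and 0 to 2 in ARNT KO, 0 to 1 estrogen-responsive genes in each, and 0 to 3 cluster neighbours in AHR KO and 0 to 1 in ARNT KO. The number called over all genes moved under several of these settings as well, so nothing is read from the list counts. ARNT KO replicate 3 is the library that moves the numbers called most. Afp rests on 30 to 156 reads per library, and 3 libraries per group limit every SE.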
